A study of Mus musculus with 12 samples.

Results

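Smads that carry the BMP signal, the inhibitory Smads that restrain it and a few of its direct target genes were followed in fetal mouse gonads. The genes were chosen by name, without use of their measured values: *Smad4*, *Smad1*, *Smad5*, *Smad6*, *Smad7*, *Id1*, *Id2*, *Id3*, *Msx1* and *Msx2*, 10 of the 29169 genes on the array. They were represented by 18 of its 41174 probes, and all 10 were among the 18836 genes that were bright enough to be tested. RNA of whole gonads at E14.5 was hybridised to 12 single-colour arrays, 3 per group, each RNA coming from the gonads of a single fetus after tamoxifen had been given at E9.5 and E10.5. The 3 *Smad4 (Stella)* ovaries were *Smad4* flox/flox with the MerCreMer transgene and *Stra8* +/-, and the 3 DKO ovaries were *Smad4* flox/flox with MerCreMer and *Stra8* -/-. The 3 control testes, like control ovary 1, were *Smad4* flox/+ with StellaMerCreMer and *Stra8* +/-. Control ovary 2 was *Smad4* flox/+ and *Stra8* +/- without the Cre, and control ovary 3 was *Smad4* flox/flox and *Stra8* +/- without it. Thus every animal carried at least 1 floxed *Smad4* allele and at least 1 *Stra8* null allele, on a mixed background. Because the Cre is driven by regulatory sequences of *Stella*, a germ cell gene, somatic cells of the gonad keep *Smad4*, and their RNA is in every sample. The paper reports variable Cre activity and names incomplete deletion, so some germ cells of the mutants may keep *Smad4* too. A group of *Stra8* -/- ovaries with intact *Smad4* was not analysed here, so DKO ovaries can be set against loss of *Smad4* alone but not against loss of *Stra8* alone.

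BMP ligands bind serine/threonine kinase receptors, which phosphorylate the receptor-regulated *Smad1*, *Smad5* and *Smad9* proteins. These join the common partner Smad4, enter the nucleus and bind their target genes, among which the *Id* genes, inhibitors of bHLH transcription factors, and the *Msx* homeobox genes are the best known. The inhibitory Smads, *Smad6* and *Smad7*, are themselves induced by the pathway and damp it. In the fetal ovary the somatic cells make BMP2, and *Stra8* is needed in the germ cells to begin meiosis.

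Levels are given as log2 of the processed intensity minus the 75th percentile of the array, so that 0 is the 75th percentile of that array, and the levels of different genes cannot be set against each other because probes differ in brightness. A gene was called where it differed by 1.5-fold or more and limma, fitted over all 12 arrays and 18836 genes, gave it an adjusted p under 0.05. The exact permutation test of 3 arrays against 3 cannot go below p = 0.1. In RNA of a whole gonad, fewer cells of a type and less RNA per cell cannot be told apart. The control testes and control ovary 1 were on slide 1, control ovaries 2 and 3 and DKO ovaries 1 and 2 on slide 2, and DKO ovary 3 with the 3 *Smad4 (Stella)* ovaries on slide 3. Across arrays, 58.8% to 70.5% of probes were well above background and 0 were saturated. Sertoli genes separated the labelled sexes: the summed level of 6 Sertoli genes was 113 to 124 in the testes and 1.76 to 3.01 in the ovaries, as multiples of the 75th percentile. Germ cells were present in all groups, with 6 germ cell genes summing to 69.2 to 95.2 in control ovaries, 65.6 to 79.9 in *Smad4 (Stella)* ovaries, 103 to 132 in DKO ovaries and 83.3 to 100 in the testes. Summed over 4 genes of mesonephric epithelium, DKO ovary 3 was at 2.53 and DKO ovaries 1 and 2 at 0.415 and 0.417. Among the control ovaries the third was at 1.67 against 0.171 and 0.256. A sum can be carried by a single gene, and *Cdh16* varied most within groups (SE 1.19 in limma, against 0.17 to 0.28 for *Pax2*, *Pax8* and *Lhx1*).

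**Figure D1:**
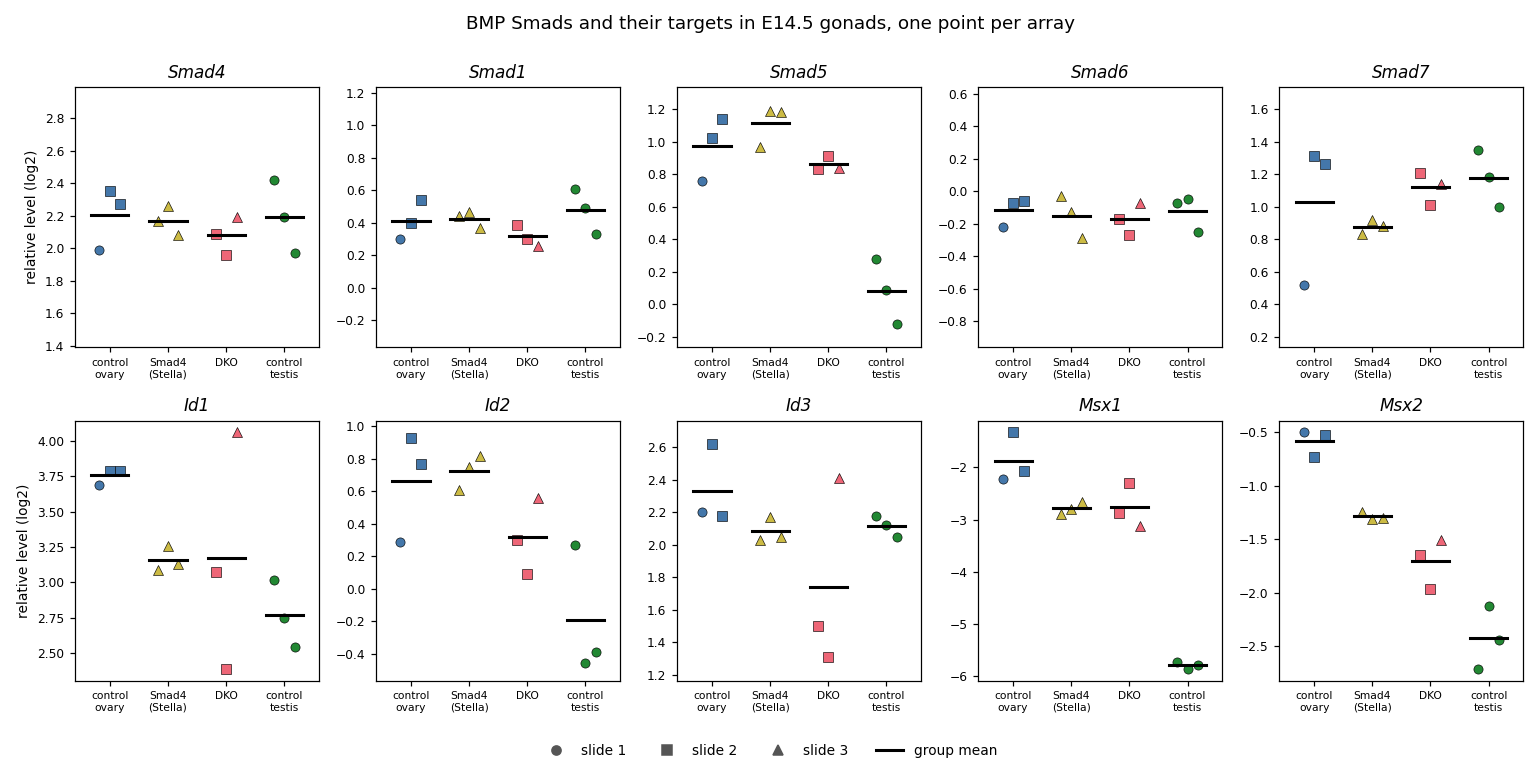
Relative log2 level (vertical axis, 0 is the 75th percentile of the array, with a range set for each gene) of the 10 genes on each of the 12 arrays, with the group on the horizontal axis, the shape of a point giving its slide and the bar the mean of 3 arrays. The 3 testes lie below every ovary for *Smad5*, *Msx1* and *Msx2*, and the 3 DKO ovaries lie below the 3 control ovaries for *Msx1* and *Msx2*.

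Of the 10 genes, 2 were called in DKO ovaries against control ovaries, *Msx1* and *Msx2*, and both were lower. Over all genes tested, 14.7% were called in that comparison and 7.98% were called lower. The median log2 fold change of the 10 was -0.24, against 0.00 for all genes, and 3 of the 10 had an unadjusted p under 0.05 in limma. In *Smad4 (Stella)* ovaries against the same control ovaries limma called 0 of the 10, where 0.271% of all genes were called. There 2 of the 10, again *Msx1* and *Msx2*, had an unadjusted p under 0.05, the methods' t-test gave 3 at that level (*Id1* in addition) and 0 after adjustment, and the median was -0.09 against -0.02 for all genes. In control testes 5 of the 10 were called and all 5 were lower than in control ovaries, namely *Smad5*, *Id1*, *Id2*, *Msx1* and *Msx2*, with a median of -0.54 against 0.02. For testes and ovaries 34.0% of all genes were called and 16.8% were called lower. All 3 comparisons share the same 3 control ovaries, so they are not independent of each other. Shares of all genes, here and below, are those called, and no share at an unadjusted p is given. Counts of genes at an unadjusted p are therefore not set against all genes.

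**Figure D2:**
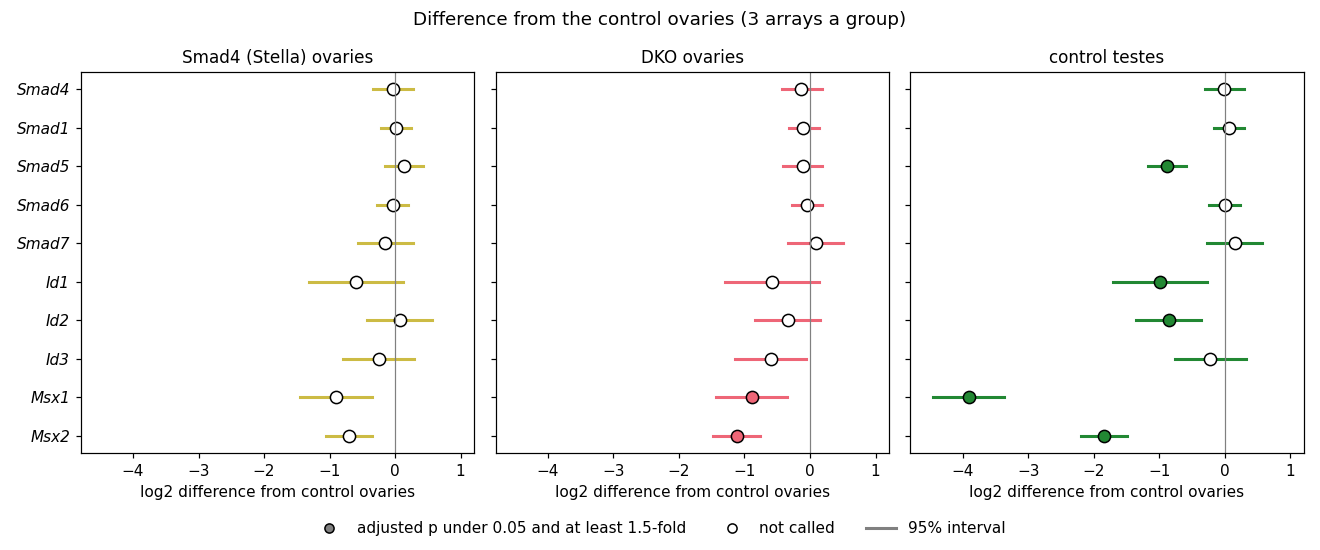
Log2 difference from the control ovaries (horizontal axis) for each gene (vertical axis) in *Smad4 (Stella)* ovaries, DKO ovaries and control testes, with bars for the 95% interval of the fit and filled points for called genes. The Smads lie near 0 apart from *Smad5* in the testes at -0.89, while *Msx1* is at -0.91 and -0.89 in the mutant ovaries and at a fitted -3.91 in the testes, which is no exact size because 1 of its 2 probes was not well above background there.

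To show the regulatory sequence of the target genes, the 250 bases before the transcription start are given for the *Id* and *Msx* genes held by the RefSeq promoter table (build GRCm38.p6), which had 7 of the 10 genes. Each is written 5′ to 3′ on the strand of the gene: *Id2* from chr12:25096093-25096342 on the minus strand, *Id3* from chr4:136143572-136143821 on the plus strand, *Msx1* from chr5:37824586-37824835 on the minus strand and *Msx2* from chr13:53472781-53473030 on the minus strand. Capitals mark exact matches, on either strand, to 4 short motifs written for binding of Smads: the GC-rich GGCGCC and GGAGCC, the palindrome GTCTAGAC and CAGACA.
Id2: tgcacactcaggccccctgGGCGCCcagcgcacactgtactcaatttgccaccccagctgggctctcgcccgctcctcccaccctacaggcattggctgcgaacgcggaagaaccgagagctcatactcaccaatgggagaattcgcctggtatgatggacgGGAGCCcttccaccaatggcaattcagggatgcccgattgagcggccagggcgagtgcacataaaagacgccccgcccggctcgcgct
Id3: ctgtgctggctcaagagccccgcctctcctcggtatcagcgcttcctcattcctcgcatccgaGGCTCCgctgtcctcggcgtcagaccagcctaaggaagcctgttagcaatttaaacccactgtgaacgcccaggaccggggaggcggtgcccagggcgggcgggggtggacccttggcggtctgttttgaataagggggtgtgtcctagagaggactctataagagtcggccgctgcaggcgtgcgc
Msx1: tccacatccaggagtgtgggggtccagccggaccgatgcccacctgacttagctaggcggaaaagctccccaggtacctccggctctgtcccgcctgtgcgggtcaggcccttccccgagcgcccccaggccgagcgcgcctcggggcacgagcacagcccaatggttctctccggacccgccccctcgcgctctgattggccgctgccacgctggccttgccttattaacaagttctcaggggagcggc
Msx2: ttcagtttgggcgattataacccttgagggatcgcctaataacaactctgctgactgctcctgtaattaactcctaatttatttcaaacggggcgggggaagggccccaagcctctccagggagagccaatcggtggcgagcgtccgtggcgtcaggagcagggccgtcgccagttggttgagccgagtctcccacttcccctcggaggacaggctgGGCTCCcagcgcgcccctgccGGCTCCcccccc
*Id2* held 1 GGCGCC and 1 GGAGCC, *Id3* held 1 GGAGCC, *Msx2* held 2 GGAGCC, which began 33 and 12 bases before the start, and *Msx1* held none of the 4 motifs in this window. Over the same 250 bases of all 32851 promoters in the table, 9.59% held GGCGCC, 26.0% held GGAGCC, 0.167% held GTCTAGAC and 17.1% held CAGACA, so that a GGAGCC is common. *Smad6* held 2 GGAGCC as well, and *Smad1* held no match. *Smad5* has 3 starts in the table, of which 1 held GGCGCC, 1 held GGAGCC and 1 held neither. A match is a description of the letters and not a binding site, and these windows say nothing of sites farther away.

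*Smad4*, the common partner and the floxed gene, was measured by 2 probes on chromosome 18 of mm9, from 73798647 to 73798681 and from 73798705 to 73798764. Control ovaries were at 2.20 ± 0.19 (SD, n = 3). *Smad4 (Stella)* ovaries, at 2.17 ± 0.09 (SD, n = 3), differed from them by -0.03 on the log2 scale (95% interval -0.34 to 0.27, adjusted p = 0.91 from limma). DKO ovaries, at 2.08 ± 0.12 (SD, n = 3), differed by -0.13 (95% interval -0.43 to 0.18, adjusted p = 0.563 from limma). At the probe starting at 73798705 the DKO ovaries read 4.13, 3.76 and 4.15 and the control ovaries 4.30, 4.24 and 4.22, so that all DKO arrays were lower, by 0.24 on average (unadjusted p = 0.0723 in limma). At the other probe the same groups overlapped, with DKO ovaries at 0.05, 0.15 and 0.22 and control ovaries at -0.32, 0.46 and 0.31. The labels do not give which part of *Smad4* is flanked by loxP sites, so these probes are no check of the deletion, and somatic RNA is included in each value. Testes read 2.20 ± 0.22 (SD, n = 3) for *Smad4*, a difference of -0.01 (95% interval -0.31 to 0.29) from control ovaries.

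The receptor-regulated Smads behaved differently from each other between the sexes. *Smad1*, with 2 probes on chromosome 8 of mm9 from 81863015 to 81863074 and from 81863418 to 81863474, had group means of 0.32 to 0.48, and limma called 0 of the 6 differences between groups, none of which had an unadjusted p under 0.05. Its arrays in all groups together spanned 0.26 to 0.61. *Smad5*, which shares with *Smad1* the role of carrying the BMP signal, read 0.28, 0.09 and -0.12 in the 3 testes and 0.76, 1.02 and 1.14 in the 3 control ovaries. Every testis was below every ovary of any genotype. The fall in testes was -0.89 on the log2 scale (SE 0.13, adjusted p = 0.000304 from limma), or 1.85-fold, and within slide 1, where 3 testes met control ovary 1, the difference was -0.67. The call was lost with the deposited table (adjusted p = 0.083). *Smad4 (Stella)* ovaries read 0.97, 1.19 and 1.18 for this gene, and 0.83, 0.91 and 0.84 were read in the DKO ovaries. These overlapped the control ovaries, and the differences from them were 0.14 (SE 0.13) and -0.11 (SE 0.13), neither called.

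The 3 *Smad5* probes did not report the same difference. Probe 1, on chromosome 13 of mm9 from 56839004 to 56839063, read -1.99, -2.31 and -2.46 in testes and -0.52, -0.51 and -0.21 in control ovaries. The fall at that probe was -1.84 (SE 0.16, adjusted p = 6.32e-06 from limma over all probes). Probe 3, from 56843557 to 56843616, fell by 0.63 (SE 0.11, adjusted p = 0.000751 from limma). Probe 2, from 56840572 to 56840631, overlapped between the sexes and differed by -0.19 (SE 0.23, adjusted p = 0.541 from limma). The lower gene level in testes therefore rested on probes 1 and 3, and mostly on probe 1. At probe 1 the DKO ovaries read -0.58, -0.86 and -0.9, all below the control ovaries. That difference was -0.37 (SE 0.16, adjusted p = 0.122 from limma) and was not called. At probes 2 and 3 the DKO and control ovaries overlapped. The stretch of the transcript under each probe was not examined, since no annotation of that build was used here.

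**Figure D3:**
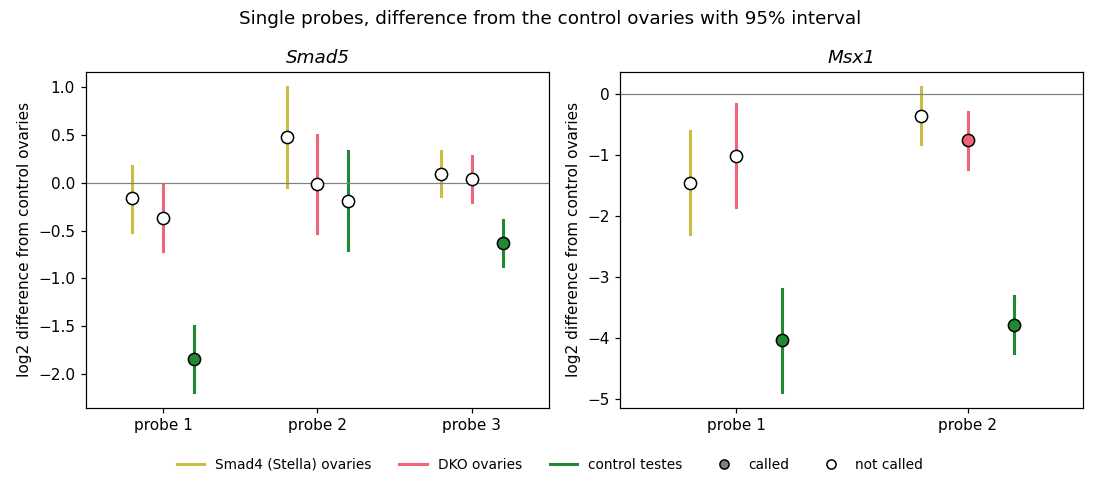
Log2 difference from the control ovaries (vertical axis) at each single probe of *Smad5* and *Msx1* (horizontal axis, numbered by genome position), with bars for the 95% interval and filled points for called probes. The *Smad5* difference in testes runs from -0.19 at probe 2 to -1.84 at probe 1, while both *Msx1* probes are below 0 in all 3 comparisons, the testis value at *Msx1* probe 1 being not well above background.

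The inhibitory Smads were called by limma in 0 of the 6 comparisons of groups, and neither had an unadjusted p under 0.05 in any of them. *Smad6*, which inhibits mainly the BMP branch, had its single probe on chromosome 9 of mm9 from 63801378 to 63801437. Its group means were -0.17 to -0.12, and its 12 arrays spanned -0.29 to -0.03. The difference of DKO from control ovaries was -0.05 (95% interval -0.28 to 0.18), and that of *Smad4 (Stella)* from control ovaries was -0.03 (-0.27 to 0.20). *Smad7*, which blocks both BMP and TGF-beta receptors, had its single probe on chromosome 18 from 75555371 to 75555430. Its control ovaries read 0.52, 1.31 and 1.26, its *Smad4 (Stella)* ovaries 0.83, 0.92 and 0.88, its DKO ovaries 1.21, 1.01 and 1.14 and its testes 1.35, 1.18 and 1.0. Control ovary 1 was the lowest of all 12 arrays, and the other control ovaries lay within or near the range of the testes. That array shares slide 1 with the testes, and with the slide as a block *Smad7* differed between testes and control ovaries by 0.66 (adjusted p = 0.0101 from limma), against 0.15 (adjusted p = 0.55) without it.

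*Id1*, one of the most direct BMP targets, had the widest spread within a group among the 10 genes, an SD of 0.84 over the 3 DKO ovaries. Its 2 probes lie on chromosome 2 of mm9 from 152563036 to 152563095 and from 152563046 to 152563105, overlap each other and moved together. The control ovaries lay closest together, at 3.69, 3.79 and 3.79, and *Smad4 (Stella)* ovaries read 3.09, 3.26 and 3.13. All 3 *Smad4 (Stella)* ovaries were below all control ovaries, by 0.60 on average, but the difference was not called (-0.60, SE 0.33, adjusted p = 0.331 from limma). DKO ovaries read 3.07, 2.39 and 4.06, so that the first and second were below all control ovaries and the third was above all other arrays of the series. The DKO mean differed from the controls by -0.58 (SE 0.33, adjusted p = 0.239 from limma). Without DKO ovary 3 the difference was -1.03 (adjusted p = 0.0063 from limma), and with the slide as a block, which leaves the contrast to slide 2, it was -1.06 (adjusted p = 0.0126), both called.

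*Id3*, another *Id* gene, with its probe on chromosome 4 of mm9 from 135700075 to 135700249, showed the same split of the DKO arrays. The 3 DKO ovaries read 1.5, 1.31 and 2.41, the control ovaries 2.20, 2.62 and 2.18, and the *Smad4 (Stella)* ovaries 2.03, 2.17 and 2.05. DKO ovaries 1 and 2 were the lowest arrays of the series and DKO ovary 3 lay within the controls. Over all arrays the DKO difference was -0.60 (SE 0.24, unadjusted p = 0.0336, adjusted p = 0.11 from limma) and was not called. Without DKO ovary 3 it was -0.93 (adjusted p = 0.002), and with the slide as a block -1.0 (adjusted p = 0.00295), both called. On slide 3, DKO ovary 3 was above the mean of the *Smad4 (Stella)* ovaries by 0.90 for *Id1* and by 0.33 for *Id3*. DKO ovary 3 is also the array with the highest sum of the mesonephric genes. Control ovary 3, the next highest in that sum, read 3.79 for *Id1* and 2.18 for *Id3*. The other control ovaries read 3.69 and 3.79 for *Id1* and 2.20 and 2.62 for *Id3*. The part of mesonephric cells in the *Id1* and *Id3* levels of DKO ovary 3 was not tested.

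No slide held both *Smad4 (Stella)* and control ovaries, so for that pair the slide could be taken into account only through the DKO arrays. In such a fit the difference from control ovaries was -1.96 for *Id1* and -1.33 for *Id3* (adjusted p = 0.0781 from limma for each), against -0.60 and -0.25 (SE 0.24, adjusted p = 0.59) without the slide. These larger values pass through DKO ovary 3. In testes *Id1* read 3.02, 2.75 and 2.54, below all control ovaries, and fell by 0.99 (SE 0.33, adjusted p = 0.0285 from limma), or 1.98-fold. The call was lost, at a log2 difference of -1.11 to -0.87 over all alternatives tried, when testis 2, testis 3 or any of the 3 control ovaries was left out, with normexp and without the filter on dim probes. *Id3* did not change by a called amount between the sexes, at 2.18, 2.12 and 2.05 in testes and a difference of -0.22 (SE 0.24, adjusted p = 0.489 from limma).

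*Id2*, the third *Id* gene followed, read 0.29, 0.93 and 0.77 in control ovaries, and *Smad4 (Stella)* ovaries lay among these at 0.61, 0.75 and 0.82, a difference of 0.07 (95% interval -0.43 to 0.56). DKO ovaries read 0.30, 0.09 and 0.56, and their difference from controls was -0.34 (SE 0.22, adjusted p = 0.31 from limma), with overlapping arrays. Its 3 probes are on chromosome 12 of mm9, from 25778904 to 25778963, from 25780080 to 25780139 and from 25780183 to 25780530. Testes read 0.27, -0.46 and -0.39, all below the lowest control ovary, although testis 1 was only 0.02 below control ovary 1. *Id2* fell by 0.86 in testes (SE 0.22, adjusted p = 0.00874 from limma), and each of the 3 probes was called lower, by 0.92, 1.03 and 0.63. Testes and control ovaries did not overlap at the probe starting at 25778904. At those starting at 25780080 and 25780183 they did, with testis 1, at -3.07 and 1.12, above control ovary 1, at -3.4 and 1.06. Within slide 1 the difference of the testes from control ovary 1 was -0.48, and with the slide as a block the call was lost (adjusted p = 0.181), as it was with the deposited table and with normexp.

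*Msx1* and *Msx2*, homeobox transcription factors long known as BMP targets, were the only ones of the 10 called in a mutant against control ovaries. *Msx2*, whose probe spans 53563333 to 53563392 of chromosome 13 in mm9 and was spotted 10 times on each array, read -0.50, -0.73 and -0.52 in control ovaries. The *Smad4 (Stella)* ovaries were at -1.24, -1.31 and -1.30 and the DKO ovaries at -1.65, -1.96 and -1.51, and the testes at -2.71, -2.12 and -2.44. The 4 groups stood in that order with no overlap between any pair of neighbours. *Msx2* fell in DKO ovaries by 1.12 (SE 0.16, adjusted p = 0.000693 from limma), or 2.18-fold, and by 1.18 within slide 2. The call was lost with the deposited table, which is not scaled between arrays (-0.94, adjusted p = 0.0669 from limma), and with normexp background correction (-0.60, adjusted p = 0.334). In *Smad4 (Stella)* ovaries the difference from controls was -0.70 (SE 0.16, 1.62-fold, unadjusted p = 0.00124), and its adjusted p from limma was 0.0788, short of a call. The step from *Smad4 (Stella)* to DKO ovaries was -0.42 (SE 0.16, adjusted p = 0.118 from limma) and was not called either, while the step from DKO ovaries to testes, 0.72 higher in the DKO ovaries (SE 0.16, adjusted p = 0.00546 from limma), was called. That last call was lost without testis 1, with the slide as a block, with the deposited table and with normexp. Against control ovaries the testes were lower by 1.84 on the log2 scale (-1.84, SE 0.16, adjusted p = 7.35e-06 from limma), or 3.57-fold, which was called in all 20 other fits tried.

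*Msx1* showed the largest difference between the sexes among the 10 genes. Averaged over its 2 probes it read -2.23, -1.33 and -2.07 in control ovaries and -5.73, -5.86 and -5.78 in testes, without overlap, although 1 of the probes was not well above background in testes. In *Smad4 (Stella)* ovaries it read -2.90, -2.79 and -2.66 and in DKO ovaries -2.87, -2.30 and -3.13, so that every array of both mutant groups was below every control ovary. The difference from controls was nearly equal in the mutants, -0.91 in *Smad4 (Stella)* ovaries (SE 0.25, unadjusted p = 0.00401, adjusted p = 0.107 from limma) and -0.89 in DKO ovaries (SE 0.25, unadjusted p = 0.00444, adjusted p = 0.0254 from limma). Only the DKO value passed the adjustment, which is less strict in a comparison with 14.7% of genes called than in one with 0.271%, and the direct difference between DKO and *Smad4 (Stella)* ovaries was 0.01 (95% interval -0.53 to 0.56). The DKO call was lost when control ovary 2, DKO ovary 1 or DKO ovary 3 was left out, with the deposited table (-0.71, adjusted p = 0.452 from limma) and with normexp (-0.18, adjusted p = 0.763). It was lost as well without the filter on dim probes (adjusted p = 0.0537 from limma) and with only the 2 groups in the fit (adjusted p = 0.131). The methods' t-test did not call *Msx1* there, with or without adjustment. Within slide 2 the difference was -0.89 as well.

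The 2 *Msx1* probes lie side by side on chromosome 5 of mm9. Probe 1, from 38212242 to 38212299 and spotted 10 times, rose well above background on every control and *Smad4 (Stella)* array, on 2 of the 3 DKO arrays and on 0 of the 3 testis arrays. The testis level there is only a bound, set at the lowest signal well above background on each array. Against it, control ovaries were at least 3.88-fold, DKO ovaries at least 1.92-fold and *Smad4 (Stella)* ovaries at least 1.42-fold higher. Probe 2, from 38212305 to 38212364, was well above background on all 12 arrays and read 0.03, 0.54 and -0.22 in control ovaries and -3.65, -3.70 and -3.66 in testes. The difference of the testes was -3.78 (SE 0.21, adjusted p = 4.21e-07 from limma). The mutants differed between the probes. In *Smad4 (Stella)* ovaries probe 1 was below the controls on all arrays (-1.46, SE 0.38, adjusted p = 0.106 from limma), while probe 2 overlapped with them (-0.36, SE 0.21, adjusted p = 0.375). In DKO ovaries probe 1 overlapped (-1.02, SE 0.38, adjusted p = 0.0841 from limma) and probe 2 did not (-0.76, SE 0.21, adjusted p = 0.0257).

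The mutant ovaries were also set against the testes. In DKO ovaries 3 of the 10 genes were called and all 3 were higher than in testes, *Smad5* by 0.77 (SE 0.13, adjusted p = 0.0012 from limma), *Msx1* by 3.02 at probe 2, the one measured in testes (SE 0.21, adjusted p = 3.04e-06 over all probes), and *Msx2* by 0.72, where 25.7% of all genes were called and 12.7% were called higher. In *Smad4 (Stella)* ovaries 4 of the 10 were called and all 4 were higher than in testes, where 30.9% of all genes were called and 14.7% were called higher. These were *Smad5* by 1.02, *Id2* by 0.93, *Msx1* by 3.43 at probe 2 and *Msx2* by 1.14. No slide held testes with either mutant, and with the slide as a block only *Msx1* of these genes kept its call, in both mutants, while *Smad7* and *Id3* were called in addition. The *Id2* difference was then 0.00 (adjusted p = 0.997 from limma). Between DKO and *Smad4 (Stella)* ovaries limma called 0 of the 10, where 8.45% of all genes were called. In that comparison 1 of the 10, *Msx2*, had an unadjusted p under 0.05 in limma, and the methods' t-test gave 3 at that level, *Smad5*, *Smad7* and *Msx2*.

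The rest of the pathway was taken from a list of 46 other genes, chosen with earlier results of these data known. Of these, 43 could be tested and *Bmp15*, *Smad9* and *Dlx5* could not. In *Smad4 (Stella)* against control ovaries limma called 0 of the 43, where only 0.271% of all genes were called. There 4 of the 43 had an unadjusted p under 0.05 in limma, and the methods' t-test gave 3 at that level and 0 after adjustment. In DKO ovaries 5 were higher and 2 were lower than in control ovaries, 7 of the 43 where 14.7% of all genes were called. In testes 12 were higher and 8 lower, where 34.0% of all genes were called. Of 7 type I and type II receptors limma called 0 in either mutant, with 2 at an unadjusted p under 0.05 in DKO and 1 in *Smad4 (Stella)* ovaries. Of 9 tested genes known to respond to BMP it called 0 as well, with 3 and 2 at that level. In testes 1 receptor was higher and 3 lower, and 3 of those 9 responsive genes were higher and 2 lower.

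Among the ligands, *Bmp8b* and *Bmp7* rose in DKO ovaries. *Bmp8b*, known for its part in forming and keeping germ cells, read -3.09, -3.47 and -3.85 in DKO ovaries. It rose well above background on 0 of the 3 control ovary arrays, 1 of the 3 *Smad4 (Stella)* arrays and all DKO and testis arrays. The DKO level was at least 4.15-fold that of control ovaries. The call against control ovaries (adjusted p = 0.000266 from limma) is for the values as read and not for the bound. In DKO against *Smad4 (Stella)* ovaries the log2 difference was 1.87 (SE 0.28, adjusted p = 0.00247 from limma). The second of these calls was lost with the slide as a block (1.49, adjusted p = 0.0686), and both were lost with normexp. *Bmp7* read 1.81, 1.33 and 1.53 in control ovaries, below the 2.31, 2.18 and 2.09 of the DKO ovaries, and rose by 0.64 (SE 0.13, adjusted p = 0.00558 from limma). Of the 6 germ cell genes, *Dppa3*, *Kit* and *Tdrd1* were called higher in DKO than in control ovaries, by 2.33, 1.2 and 1.38, while *Ddx4*, *Mael* and *Dazl* differed by 0.14, 0.03 and -0.08 and were not called. The part of germ cells in the levels of these ligands was not tested. The *Bmp7* call was lost with the deposited table, normexp, the brightest probe and only the 2 groups in the fit, and without control ovary 2 or DKO ovary 1.

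Among the inhibitors, *Skil* and *Tgif1*, nuclear corepressors of Smad complexes, rose in DKO ovaries by 0.90 (SE 0.14, adjusted p = 0.00107 from limma) and 0.59 (SE 0.12, adjusted p = 0.00525). *Skil* read -0.04, -0.05 and -0.34 in DKO ovaries, above the -1.02, -1.07 and -1.03 of control ovaries and above the -0.56, -1.08 and -0.94 of *Smad4 (Stella)* ovaries. It was the other gene of the list called between DKO and *Smad4 (Stella)* ovaries (0.72, SE 0.14, adjusted p = 0.00825 from limma), a call that was lost with the slide as a block (0.52, adjusted p = 0.159), the deposited table (0.47), normexp, the brightest probe and a fit of only the 2 groups. The call of *Skil* against control ovaries was lost with the deposited table alone. The ubiquitin ligases that mark Smads and their receptors for degradation went opposite ways, *Smurf1* rising by 0.63 (SE 0.12, adjusted p = 0.00369 from limma) and *Smurf2* falling (-0.69, SE 0.10, adjusted p = 0.000672). In testes the same pair differed from control ovaries by 1.0 and -0.72, both called. The DKO calls of *Smurf1*, *Smurf2* and *Tgif1* were lost with the deposited table and with normexp. Those of *Smurf1* and *Smurf2* were also lost with the brightest probe, and that of *Smurf1* with the slide as a block and without control ovary 1 or DKO ovary 2. The *Tgif1* call was lost besides with only the 2 groups in the fit and without control ovary 2, control ovary 3 or DKO ovary 2. *Bmper*, a secreted BMP-binding protein, was lower in DKO ovaries by 0.82 (-0.82, SE 0.24, adjusted p = 0.0308 from limma), at -1.88, -2.44 and -1.75 against -1.63, -1.13 and -0.85, and its call was lost without control ovary 2, control ovary 3 or DKO ovary 2, with the deposited table, with normexp (-0.24), without the filter on dim probes, with the replicate block and with only the 2 groups in the fit.

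**Figure D4:**
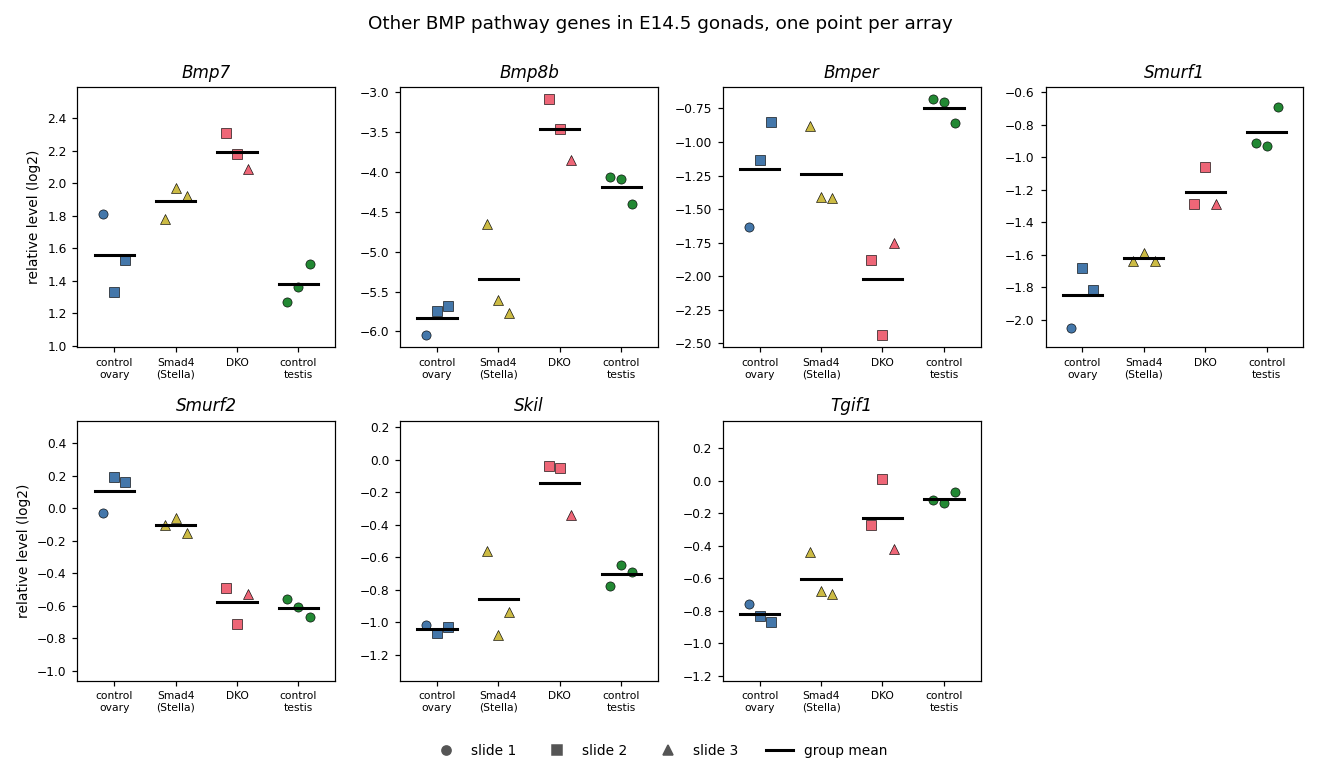
Relative log2 level (vertical axis, range set for each gene) of the 7 further BMP pathway genes called in DKO against control ovaries, on each of the 12 arrays by group (horizontal axis), with the slide as the shape of a point and the bar as the mean of 3 arrays. *Smurf2* and *Bmper* lie lower in the 3 DKO ovaries than in the 3 control ovaries and the other 5 higher, and *Bmp8b* was not well above background in any control ovary.

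Between testes and control ovaries 3 of 10 extracellular antagonists and modulators were higher and 1 was lower, and so were 3 and 1 of 9 ligands. Of all genes tested, 17.2% were called higher and 16.8% lower in that comparison. The 2 pathway genes with the largest fitted rise and the 2 with the largest fitted fall are given here. *Sostdc1*, an extracellular BMP antagonist, read 3.72, 3.14 and 3.53 in testes and -4.65, -3.22 and -2.11 in control ovaries, and rose by 6.79 (SE 0.67, adjusted p = 1.91e-05 from limma). *Grem1*, another antagonist, was not well above background in any ovary, and the testis level exceeded that bound in control ovaries by at least 2.36-fold. *Grem1* was called (adjusted p = 1.53e-06 from limma, for the values as read and not for the bound), and the call was lost with normexp. Lower in testes was *Fst*, follistatin, which binds activins and some BMPs and read 1.90, 2.52 and 2.18 in control ovaries and -3.92, -4.26 and -4.54 in testes, a difference of -6.44 (SE 0.30, adjusted p = 1.42e-07 from limma). *Gata3*, a transcription factor listed among the BMP-responsive genes, differed by -2.99 (SE 0.23, adjusted p = 3.07e-06 from limma). In the mutant ovaries *Fst* stayed at 1.48 to 2.60 and *Gata3* at 0.07 to 0.43, within or next to the range of the control ovaries.

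For each of the called genes, the 2 genes of the array whose levels followed it most closely were taken by the root mean square difference of centred log2 levels over the 12 arrays, as a description only. *Smad5* was closest to *Sparcl1* (0.08) and *Pde1a* (0.09). *Id2* was closest to the transcript TC1756583 (0.15) and to *Senp7* (0.16), and *Msx2* to *Ccdc172* (0.16) and *1700016A09Rik* (0.18). The nearest to *Id1* were ENSMUST00000134164 (0.25) and *Cd163* (0.27), and the nearest to *Msx1* were *Slc25a21* (0.35) and *Sycp1-ps1* (0.40). The levels were not scaled for a gene's own spread, so these values do not rank the called genes against each other.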

How the data were processed

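Total RNA was labelled with Cy3 and hybridised to 12 Agilent arrays, which were grouped by their labels. The authors deposited the spot intensity of each array, read with Feature Extraction 11.0.1.1 (named in the submitters' processing notes, version per the file headers) and background-corrected per array, plus 1 series table that holds this intensity unscaled. The array design was annotated on mm9.

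Here log2 of the processed intensity minus the 75th percentile of each array was computed. Outlier spots were left out, spots of a probe and then probes of a gene were averaged, and a probe was kept when well above background on all arrays of at least 1 group, leaving 27311 of 41174 probes. Groups were compared with limma 3.58.1 (R 4.3.3) in 1 model over all arrays with Benjamini-Hochberg adjustment. Each array held the RNA of a separate pair of gonads, and the number of arrays limits the precision. Besides the 10 genes, pathway genes called in a mutant against control ovaries and the 2 largest called changes in each direction in testes were named. These genes and the pathway and marker lists were chosen with earlier results of these data known.

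The alternatives covered scaling (quantile, or none as in the deposited table), normexp correction (offset 50), use of the brightest probe, omission of the filter on dim probes, a block for slide or for replicate number, fits restricted to the groups compared, other call rules, the t-test of the methods and the omission of each array in turn. They were applied to the named pathway genes after seeing the data. Replicate numbers did not pair the arrays.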

Additional observations from a re-analysis of the deposited data

How the results depend on the processing

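For DKO against control ovaries, where 2 of the 10 genes were called, the count was 0 with the deposited table and with normexp correction. It was 1 without the filter on dim probes, with only the 2 groups compared, at 2-fold and by the methods' t-test with or without adjustment, and 4 with the slide as a block (*Id1* and *Id3* in addition). Leaving out 1 array at a time gave 1 to 3, the highest without DKO ovary 3 (*Id1*, *Id3* and *Msx2*). For testes against control ovaries the count of 5 became 3 with the deposited table or normexp and 2 at 2-fold, and 4 to 5 with 1 array left out. For DKO ovaries against testes the count of 3 became 1 under each of these 3 settings, and 3 to 4 with 1 array left out. For *Smad4 (Stella)* ovaries against testes it was 2 instead of 4 with normexp and 4 with any array left out. The count of 0 was 3 by the unadjusted t-test both for *Smad4 (Stella)* against control ovaries and for DKO against *Smad4 (Stella)* ovaries. With 1 array left out it stayed 0 for the former and was 0 to 1 for the latter, *Id3* being called without DKO ovary 3. The *Id2* difference between *Smad4 (Stella)* ovaries and testes, 0.93, was 0.00 with the slide as a block and had turned sign before rounding. The cause of these shifts was not tested.

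Under normexp the median of all genes in DKO against control ovaries shifted to 0.26, and with the deposited table to 0.19, and *Msx1* was at -0.18 under normexp. Same-numbered arrays deviated with a correlation of -0.18 to 0.15, so the numbers do not pair the arrays. The replicate block left the counts at 2, 0 and 5 against control ovaries, and among the named genes only *Bmper* lost its call (adjusted p = 0.0507 from limma).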
